A study of Homo sapiens with 6 samples.

Results

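The transcription start of a protein-coding gene is where RNA polymerase II and the general transcription factors assemble. Many human starts lie in CpG islands, stretches rich in the dinucleotide CpG that are kept unmethylated and open, whereas starts of tissue-restricted genes more often lie in CpG-poor DNA. A pair of nuclear proteins was mapped by chromatin immunoprecipitation with sequencing (ChIP-seq): 82-kDa ChAT, the nuclear form of choline acetyltransferase, the enzyme that makes acetylcholine, and SATB1, a chromatin organizer known to bind A/T-rich matrix attachment regions. The peaks described here are those that touched the 1000 nt on either side of the start of a protein-coding gene, taken as the 5′ end of the gene in GENCODE release 44 on hg38.

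All groups were SH-SY5Y cells, a human neuroblastoma line, stably expressing 82-kDa ChAT that had been exposed to retinoic acid for 3 d to differentiate them. Cells were then given vehicle (Ham's F-12 medium) or 100 nM oligomeric amyloid-β1-42 (Aβ) for 4 h, from 3 plates per treatment, and chromatin was precipitated with an in-house antibody to the C-terminus of ChAT or with an antibody to SATB1. There was 1 library for each protein and treatment, so treatments were set side by side without a p-value, and every interval below is a 95% interval that covers counting error over the peaks of single libraries. The 2 lists of each treatment were filtered against the same input, no cells without the 82-kDa ChAT transgene were among the files analysed here, and peak lists carry no expression values against which the cell type could be checked.

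Of 21943 peaks on chromosomes 1 to 22 and X, 177 touched a start window, and 23953 peaks were listed over all sequences. They were 40 of 7044 peaks for 82-kDa ChAT after vehicle, 69 of 6290 for 82-kDa ChAT after Aβ, 13 of 2792 for SATB1 after vehicle and 55 of 5817 for SATB1 after Aβ. They lay at the starts of 178 genes, since some windows overlap. The 82-kDa ChAT peaks reached 42 of 19970 protein-coding genes after vehicle (0.21%) and 74 after Aβ (0.371%), and the SATB1 peaks reached 14 (0.0701%) and 56 (0.28%).

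The sequences at FCMR, LRGUK, TRPC4 and CYP4F11 are shown first because they are among the regions at which start peaks of different lists met. At FCMR, which encodes a receptor for the Fc part of IgM, the 82-kDa ChAT peaks of both treatments overlapped upstream of the start. The Aβ peak, given here, lay wholly within the vehicle peak, and capitals mark runs of at least 8 nt of alternating G and T.
FCMR (chr1:206924197-206924494, hg38, plus strand): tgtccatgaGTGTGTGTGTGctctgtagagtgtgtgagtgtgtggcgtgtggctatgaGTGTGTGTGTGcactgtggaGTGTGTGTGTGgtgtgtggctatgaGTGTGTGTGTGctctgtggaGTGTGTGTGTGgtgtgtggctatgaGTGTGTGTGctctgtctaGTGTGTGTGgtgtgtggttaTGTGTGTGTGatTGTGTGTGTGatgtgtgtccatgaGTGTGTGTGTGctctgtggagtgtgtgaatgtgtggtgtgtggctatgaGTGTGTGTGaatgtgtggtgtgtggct
The capitals cover 113 of the 298 nt of the FCMR peak, although the peak was in none of the repeat classes used below. Peaks of 82-kDa ChAT and SATB1 met after vehicle at LRGUK, which encodes a leucine-rich repeat protein with a guanylate kinase domain, and after Aβ at TRPC4, a cation channel gene, and at MRO, a gene known for expression in testis. In the LRGUK and TRPC4 sequences capitals mark the bases covered by both peaks.
LRGUK (chr7:134126188-134126385, hg38, plus strand): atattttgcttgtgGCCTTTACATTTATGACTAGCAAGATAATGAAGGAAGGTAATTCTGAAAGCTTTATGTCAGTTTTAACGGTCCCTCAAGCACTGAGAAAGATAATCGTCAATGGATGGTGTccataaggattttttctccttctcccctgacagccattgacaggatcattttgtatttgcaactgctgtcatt
TRPC4 (chr13:37870685-37870822, hg38, plus strand): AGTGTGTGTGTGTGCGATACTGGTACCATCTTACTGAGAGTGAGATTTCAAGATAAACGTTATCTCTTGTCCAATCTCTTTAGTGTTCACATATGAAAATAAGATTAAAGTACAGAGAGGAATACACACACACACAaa
The LRGUK and TRPC4 peaks lay upstream of the gene, and the MRO peaks lay within it. The shared TRPC4 bases open with alternating G and T and close with alternating A and C. At MRO the SATB1 peak, which was slightly longer, matched an Alu element and the 82-kDa ChAT peak did not. At CYP4F11, a cytochrome P450 gene, the vehicle peaks of both proteins lay in intron 1 on a tandem repeat, in which capitals mark the 13 copies of the pentamer GAATG.
CYP4F11 (chr19:15933826-15934119, hg38, plus strand): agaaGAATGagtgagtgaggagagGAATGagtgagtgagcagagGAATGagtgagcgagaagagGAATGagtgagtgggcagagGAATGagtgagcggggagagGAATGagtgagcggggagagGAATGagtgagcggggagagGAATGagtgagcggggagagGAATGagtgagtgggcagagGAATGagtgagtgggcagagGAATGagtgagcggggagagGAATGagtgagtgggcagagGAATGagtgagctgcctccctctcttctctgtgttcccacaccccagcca

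Between 0.466% and 1.10% of the peaks of a list lay at gene starts. The share of peaks that touched a start window was 0.568% (0.406 to 0.772) for 82-kDa ChAT after vehicle and 1.10% (0.854 to 1.39) after Aβ. For SATB1 it was 0.466% (0.248 to 0.795) after vehicle and 0.946% (0.713 to 1.23) after Aβ. The windows held 1.26% of the determined bases, and a peak of the lengths in each list would touch a window at 1.34% to 1.38% of positions. The share was below that value in all 4 lists, and its interval reached the value only for 82-kDa ChAT after Aβ. For SATB1 after Aβ the share was not below it without repeat peaks, the Alu-matching, multi-copy and pentamer-rich ones. It was then 1.44% (0.789 to 2.40), an interval that includes 1.35%, the value for all peaks of that list. With windows of 2000 nt the share was 2.56% and the windows held 2.48% of the bases. The share of positions touched was not computed for those windows or for peaks without repeats. At the touch shares of 1.34% to 1.38%, 97, 84.2, 38.1 and 78.4 start peaks would be met in the 4 lists in the order given. The numbers observed were 40, 69, 13 and 55.

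**Figure D1:**
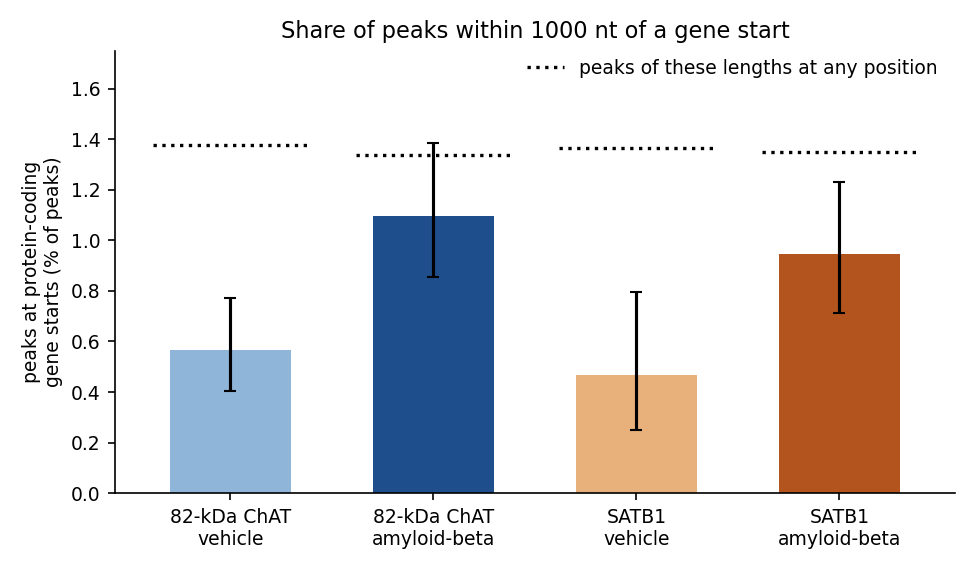
Share of peaks that touched the 1000 nt on either side of a protein-coding gene start (% of peaks on chromosomes 1 to 22 and X), for each protein and treatment. Bars give the share and whiskers its exact 95% interval over peaks of 1 library; dotted lines give the share of positions, 1.34% to 1.38%, at which peaks of the same lengths would touch a window, and all 4 bars stand below them.

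For both proteins the share was higher after Aβ than after vehicle. The difference was 0.529 percentage points (0.222 to 0.855) for 82-kDa ChAT, from fewer peaks in all after Aβ. For SATB1 it was 0.480 points (0.0847 to 0.823), and the interval included 0 when only peaks at or above the median score were kept (0.213 points, -0.397 to 0.693) or with windows of 500 nt (0.113 points, -0.150 to 0.316). Without peaks that matched an Alu element, were multi-copy or were rich in the pentamer, the differences were 0.555 points (0.183 to 0.942) for 82-kDa ChAT and 0.932 points (0.195 to 1.92) for SATB1. With 1 library per treatment, treatment and library cannot be told apart.

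The density of peak midpoints within 250 nt of a start was below the list average in all 4 lists, with intervals that did not reach it. Within 250 nt of the nearest start, 82-kDa ChAT had 0.529 peaks per Mb after vehicle (0.172 to 1.24) against 2.42 over the whole list, and 1.16 after Aβ (0.581 to 2.08) against 2.16. SATB1 had 0.318 peaks per Mb in the same ring after vehicle (0.0655 to 0.928) against 0.959, and 0.212 after Aβ (0.0256 to 0.765) against 2.0. Farther out the lists differed in shape. From 500 to 1000 nt, 82-kDa ChAT stood at 1.0 peaks per Mb after vehicle (0.592 to 1.58) and at 2.0 after Aβ (1.40 to 2.77), so the interval lay below the list average after vehicle and included it after Aβ. SATB1 after Aβ rose with distance, to 3.17 peaks per Mb at 5 to 10 kb (2.89 to 3.47), above its list average, and fell to 1.56 beyond 50 kb. SATB1 after vehicle was lower still at 250 to 500 nt, with 0.109 peaks per Mb from 1 peak, and stood at 0.278 from 500 to 1000 nt and at 0.855 at 5 to 10 kb, with an interval that includes its list average.

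**Figure D2:**
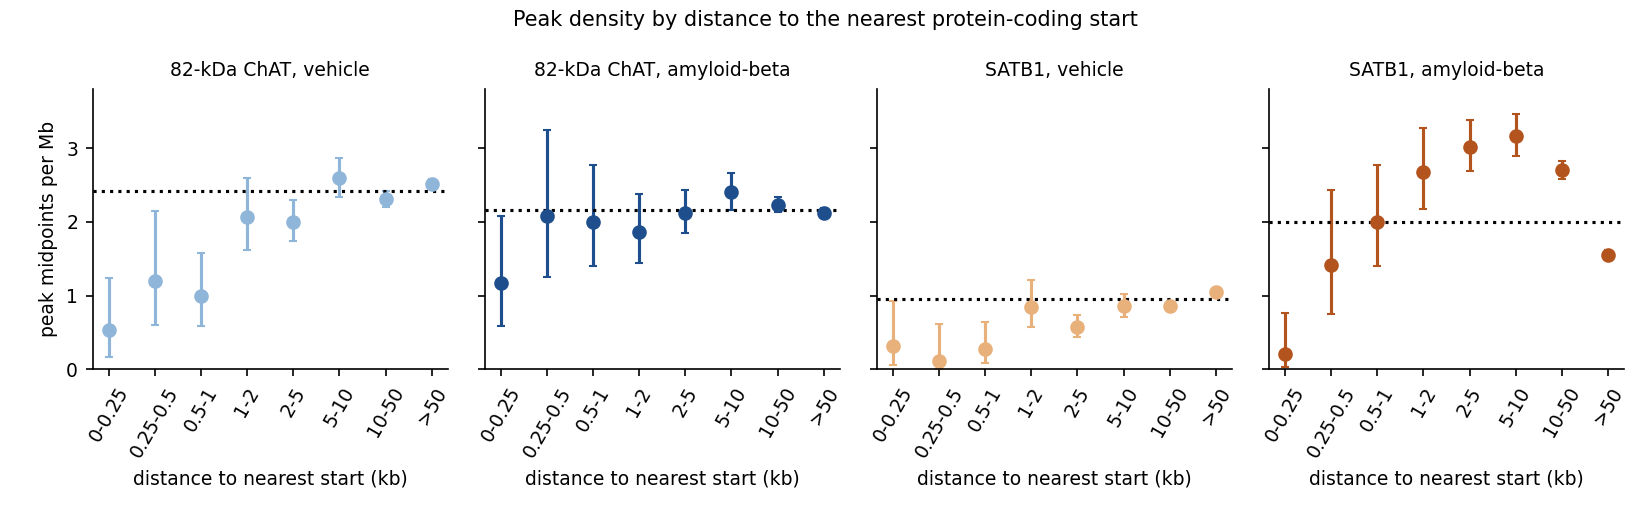
Peak midpoints per Mb (vertical axis) by distance to the nearest protein-coding start in kb (horizontal axis, classes of unequal width), 1 panel for each list. Points give the density, whiskers its exact 95% Poisson interval and dotted lines the density over the whole list; the first class, 0 to 0.25 kb, lies below the dotted line in every panel.

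Start peaks of 82-kDa ChAT were about as often upstream as downstream of the start. Their midpoint was upstream in 19 of 40 after vehicle (47.5%, 31.5 to 63.9) and in 38 of 69 after Aβ (55.1%, 42.6 to 67.1). For SATB1 it was upstream in 5 of 13 after vehicle (38.5%, 13.9 to 68.4) and in 37 of 55 after Aβ (67.3%, 53.3 to 79.3). The last interval excludes an even split. The SATB1 difference between treatments was 28.8 points, with an interval from -0.348 to 52.3 that includes 0.

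The upstream position of SATB1 peaks after Aβ went with Alu elements, short interspersed repeats that are abundant in introns and between genes. Of the 55 SATB1 peaks, 37 matched an Alu copy and 29 of these lay upstream (78.4%, 61.8 to 90.2). Of the 18 that did not, 8 lay upstream (44.4%, 21.5 to 69.2), a difference of 33.9 points (7.11 to 56.3). None of the Alu-matching peaks had its midpoint within 250 nt of the start, the nearest being at 297 nt, and only 2 of them touched an exon, against 6 of the 18 others. The Alu share itself was not higher at starts than elsewhere, at 67.3% of start peaks and 75% of the other SATB1 peaks after Aβ, a difference of -7.77 points (-21.0 to 3.20). In the 82-kDa ChAT lists Alu-matching start peaks numbered 1 of 40 and 7 of 69 (2.5% and 10.1%, against 5.40% and 9.95% of the other peaks). For SATB1 after vehicle they numbered 0 of 13, which allows a share of up to 24.7%, against 5.25% of the other peaks. In these lists too the start peaks were thus near the other peaks.

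**Figure D3:**
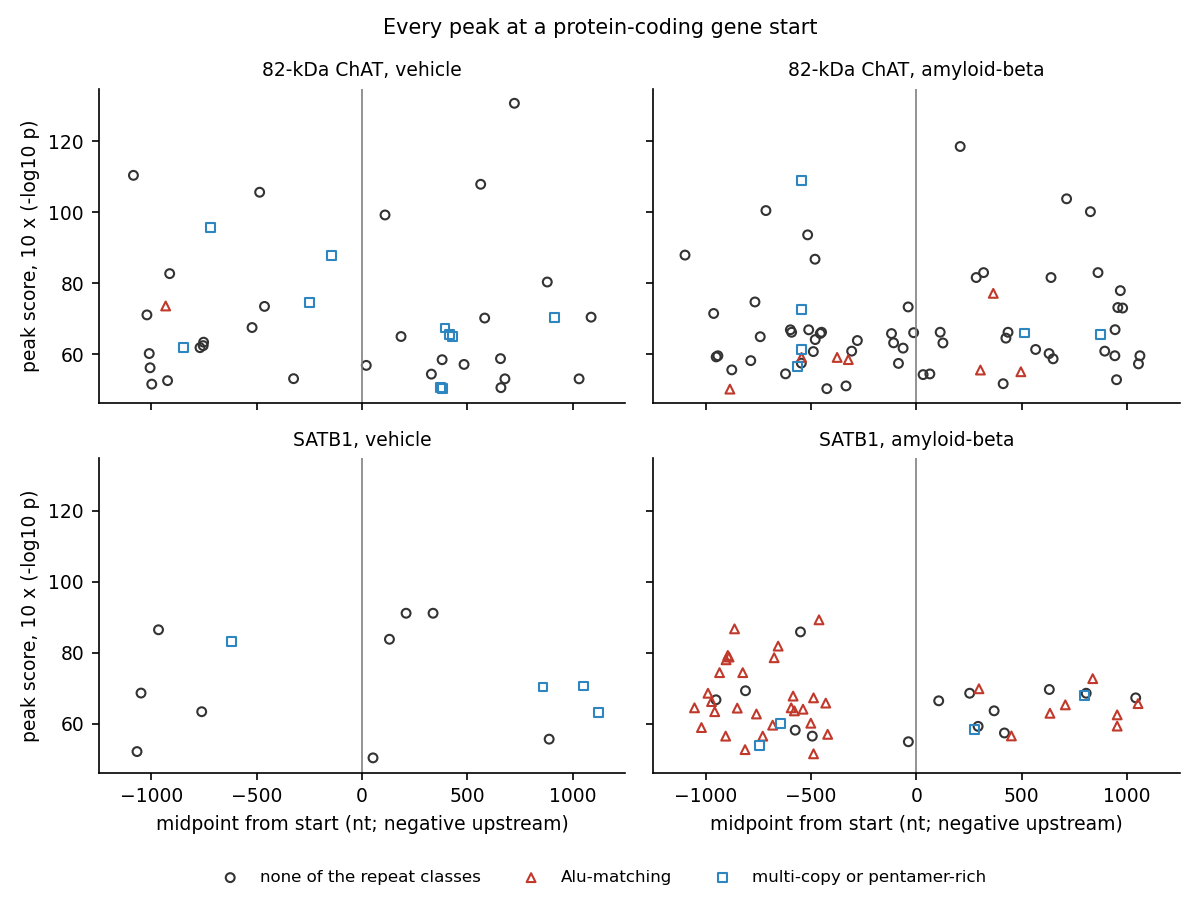
Score of each of the 177 start peaks (vertical axis, the peak caller's p-value as -log10, multiplied by 10) against the distance of its midpoint from the nearest start in nt (horizontal axis, negative upstream), 1 panel for each list. Triangles are Alu-matching peaks, squares multi-copy or pentamer-rich peaks and circles the rest; in the SATB1 panel after amyloid-beta, 29 of 37 triangles lie left of the start line.

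The median distance of the midpoint from the start was 658, 545, 859 and 682 nt in the lists of 82-kDa ChAT (vehicle, Aβ) and SATB1 (vehicle, Aβ). Only 8 peaks covered a start. After vehicle, 82-kDa ChAT covered the start of TEX43, a testis-expressed gene, with a score of 56.93. After Aβ it covered those of SMIM42 (73.39), HOXA9 (66.14), NCR2 (54.52) and OR14A16 (54.33). These encode a small membrane protein, a homeobox transcription factor, an activating receptor of natural killer cells and an olfactory receptor. SATB1 covered the starts of CTNND1 (83.84) and TEX38 (50.44) after vehicle and of SMIM42 (54.98) after Aβ. A start here is the outermost 5′ end of the gene, and the peaks at HOXA9, CTNND1 and TEX38 lay upstream of the reference transcript. So did some peaks counted as downstream of the start, such as those of 82-kDa ChAT after Aβ at RP1L1 and VPS53. Scores rise with the confidence of the peak caller, a score of 50 standing for the calling threshold of 1e-05, and no start peak scored below 50.

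At the edge of the rule, the outermost start peaks lay 1000 nt from HOXA5 and 994 nt from TSSK1B for 82-kDa ChAT, and 998 nt from ODF3L2 and 981 nt from ABCG8 for SATB1, vehicle list first. The nearest peaks left out lay 1003 nt from MYBPH, 1001 nt from MRPS14, 1013 nt from ZCCHC10 and 1016 nt from RANGRF.

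By annotation, 23 of 40 and 41 of 69 start peaks of 82-kDa ChAT touched a protein-coding gene, as did 10 of 13 and 24 of 55 of SATB1. A coding exon was touched by 10 and 8 peaks of 82-kDa ChAT and by 0 and 4 of SATB1. The 0 of 13 for SATB1 after vehicle allows a share of up to 24.7%. These counts are for start peaks alone, without the shares over the other peaks, so they do not show a trait of start peaks. Of the coding-exon peaks after vehicle, 4 lay in TAF11L4, TAF11L6, TAF11L8 and TAF11L10, copies of one gene family that lie near each other on chromosome 5. They lay 371 to 416 nt downstream of the start of each copy, with scores from 50.49 to 67.47. The TAF11L8 peak is given here, and capitals mark the 155 nt found without change in all 4 peaks.
TAF11L8 (chr5:17590506-17590672, hg38, plus strand): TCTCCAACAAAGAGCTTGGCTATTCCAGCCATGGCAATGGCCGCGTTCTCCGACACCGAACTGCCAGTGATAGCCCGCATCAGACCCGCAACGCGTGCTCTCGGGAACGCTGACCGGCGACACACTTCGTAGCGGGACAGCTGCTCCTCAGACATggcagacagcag
Because the copies share this sequence, the peaks cannot be assigned to single members of the family. The same holds for the start peaks of FAM90A15P, FAM90A16 and FAM90A19 and of USP17L15 after Aβ, which lay 545 to 566 nt upstream of their starts.

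The highest-scoring start peaks differed from list to list. For 82-kDa ChAT after vehicle they were at OR2G3, an olfactory receptor gene (130.74), FCMR (110.45), RPL34, a ribosomal protein gene (107.93), SLC26A9, an anion transporter gene (105.69), and CTNND1, which encodes the cadherin-binding p120 catenin (99.29). The OR2G3 peak spanned 60 nt of the coding exon, 723 nt downstream of the start, and the RPL34 peak lay 563 nt downstream, in intron 1 of the reference transcript. After Aβ the highest were at GNRH2, which encodes a gonadotropin-releasing hormone (118.57), FAM90A19 (109.08), RP1L1, a photoreceptor gene (103.84), CNMD, the gene of the cartilage protein chondromodulin (100.53), and VPS53, a subunit of an endosome tethering complex (100.21). ATL3, an atlastin GTPase that shapes the endoplasmic reticulum, followed at 93.69. The top peaks of the 2 lists are shown because neither fell in a repeat class, and they have no CpG to mark with capitals.
OR2G3 (chr1:247606280-247606339, hg38, plus strand): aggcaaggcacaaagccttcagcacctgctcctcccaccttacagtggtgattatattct
GNRH2 (chr20:3043805-3043856, hg38, plus strand): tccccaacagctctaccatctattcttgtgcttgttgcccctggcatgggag
Both peaks were short, and start peaks after Aβ had a median length of 108 nt for 82-kDa ChAT against 139 nt after vehicle, close to the 110 and 136 nt of the other peaks of these lists.

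For SATB1 after vehicle the highest scores were at DNAH6, an axonemal dynein gene (91.17), the readthrough gene INMT-MINDY4 (91.17), TIAM2, an exchange factor for Rac (86.51), CTNND1 (83.84) and TNFRSF8, which encodes CD30 (83.27, multi-copy). LRGUK followed among those in no repeat class (68.69). After Aβ they were at ZNF510 (89.32) and ZNF628 (86.77), both zinc finger genes, CIAO3, an iron-sulfur cluster assembly gene (85.91), TENT5B (81.91) and EXO5, a DNA exonuclease gene (79.28). All but CIAO3 matched an Alu element, and all 5 lay 462 to 895 nt upstream. Outside the repeat classes, CIAO3 was followed by SLC46A2 (69.69), COBL, an actin nucleator gene (69.34), OR6B1 (68.64) and SLC34A2, a phosphate transporter gene (68.64). The median score of start peaks was 65.07 and 64.20 for 82-kDa ChAT against 65.35 and 63.57 for the other peaks, and 70.41 and 64.53 for SATB1 against 65.85 and 66.43. The intervals of the 2 medians overlapped in every list.

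Start peaks of 82-kDa ChAT were richer in G and C than the other peaks of their lists. For 82-kDa ChAT the median GC content was 50% after vehicle (n = 40, quartiles 40.5 and 56.7) and 51.2% after Aβ (n = 69, 41.1 and 57.4), against 41.3% and 41.4% for the other peaks. For SATB1 it was 49.2% after vehicle (n = 13, 42.5 and 58.1) against 40.4%, and 52.7% after Aβ (n = 55, 50 and 56.4) against 51.9%. The bases of the start windows of all genes, with or without a peak, had a GC content of 54.2%. In each list the median of start peaks stood between that value and the median of the other peaks. The intervals of the 82-kDa ChAT medians, 45.8% to 53.3% and 43.5% to 53.9%, lay above the medians of the other peaks, and those for SATB1, 36.8% to 58.3% and 50.9% to 54.5%, included them. Single peaks ranged widely, from 21.1% at DNAJC2, a chaperone gene with a SATB1 vehicle peak, and 24.1% at ZNF215 to 81.4% at GRIN3B, an NMDA receptor subunit gene, both with peaks of 82-kDa ChAT after Aβ. The ZNF215 and GRIN3B peaks are printed to show the range, and capitals mark runs of at least 6 A or T in the first and CpG in the other.
ZNF215 (chr11:6927238-6927295, hg38, plus strand): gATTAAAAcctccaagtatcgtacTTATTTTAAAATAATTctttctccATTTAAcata
GRIN3B (chr19:1000276-1000393, hg38, plus strand): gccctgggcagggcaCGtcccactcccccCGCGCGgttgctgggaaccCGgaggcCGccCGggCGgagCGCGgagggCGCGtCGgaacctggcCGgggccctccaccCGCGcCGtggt
The GRIN3B peak lay 85 nt upstream of the start, and the DNAJC2 and ZNF215 peaks lay 761 nt upstream and 862 nt downstream.

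**Figure D4:**
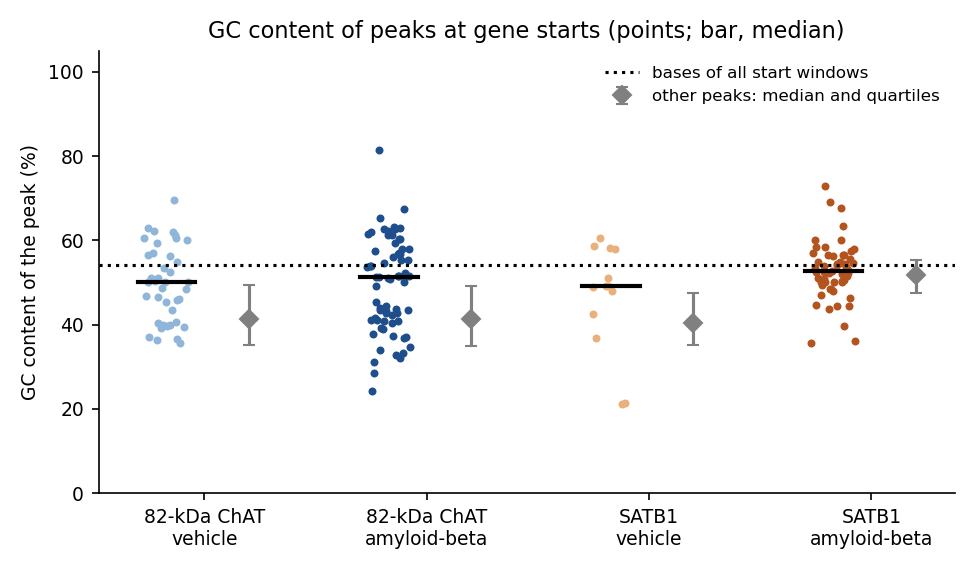
GC content of peaks (vertical axis, %) for each list. Points are single start peaks and black bars their medians, diamonds with whiskers are the medians and quartiles of the other peaks of the list, and the dotted line is the GC content of all start windows, 54.2%; the medians of start peaks lie between 49.2% and 52.7%.

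A cytosine flanked by A/T runs, at least 3 and up to 6 letters before it and at least 3 after it, is a pattern the study relates to SATB1, and it was searched on both strands. It was present in 57.5%, 55.1%, 46.2% and 58.2% of start peaks in the 4 lists, and in 67.2%, 64.6%, 71.2% and 70.0% of the other peaks. The difference was below 0 in each list, from -9.53 to -25.1 points, and its interval excluded 0 only for SATB1 after vehicle (-48.1 to -0.297, 6 of 13 peaks). At least 10 nt of alternating G and T, or A and C, a feature chosen from the FCMR and TRPC4 sequences above, whose peaks are among those counted, occurred in 3 of 40 and 5 of 69 start peaks of 82-kDa ChAT (7.50% and 7.25%, against 5.67% and 4.58% of the other peaks). It occurred in 0 of 13 and 4 of 55 of SATB1 (7.27% after Aβ), against 3.60% and 1.56% of the other peaks. These shares are a description, since the feature was taken from the members. The SATB1 peaks after Aβ were those of TRPC4, EXOC7, TCP10L and SLC45A2.

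Genes with a start peak of 82-kDa ChAT less often had a CpG-rich start. A start was called CpG-rich when the 500 nt on either side had at least 50% GC and an observed to expected CpG ratio of at least 0.6, and 58.0% of the 19970 genes met this. Among genes with a peak of 82-kDa ChAT it was 14 of 42 after vehicle (33.3%, 19.6 to 49.5) and 28 of 74 after Aβ (37.8%, 26.8 to 49.9). The differences from the genes without such a peak were -24.7 points (-37.1 to -9.61) and -20.3 points (-30.5 to -8.85). For SATB1 it was 6 of 14 after vehicle (42.9%, 17.7 to 71.1) and 28 of 56 after Aβ (50%, 36.3 to 63.7), with differences of -15.2 (-36.7 to 9.39) and -8.04 points (-20.7 to 4.64) whose intervals include 0. Counted the other way, 82-kDa ChAT had a peak at 0.121% of CpG-rich and 0.334% of other starts after vehicle, and at 0.242% and 0.549% after Aβ. SATB1 had one at 0.0518% and 0.0954% after vehicle and at 0.242% and 0.334% after Aβ. Families in tandem copies and genes with overlapping windows share their sequence, so the genes are not all independent.

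**Figure D5:**
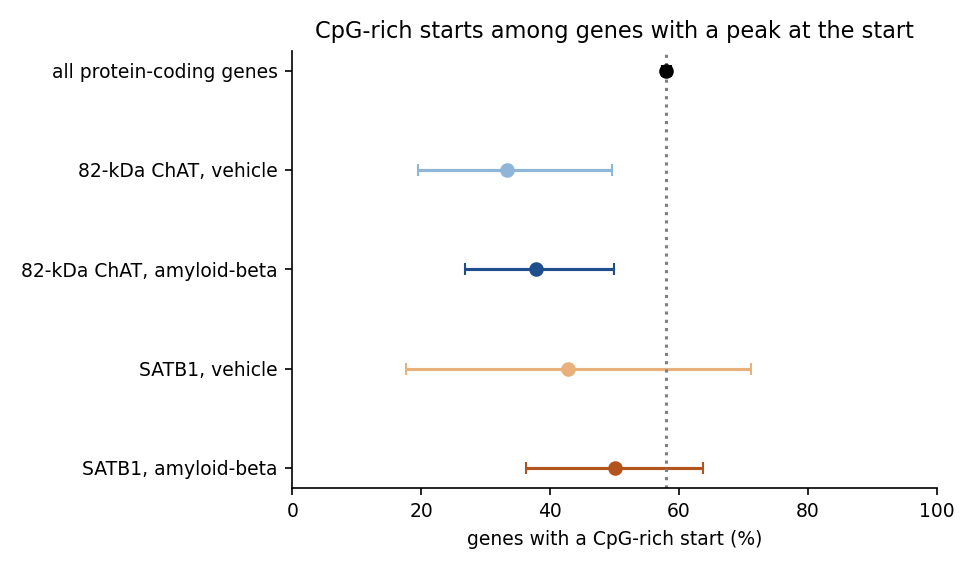
Share of genes with a CpG-rich start (horizontal axis, %) among all 19970 protein-coding genes and among the genes with a start peak in each list. Points give the share and whiskers its exact 95% interval; the dotted line marks 58.0%, and the intervals of both 82-kDa ChAT lists lie to its left.

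Short promoter motifs were counted from 250 nt before to 50 nt after each start, on both strands. The GC box, GGGCGG, was present in 52.4% of all genes, in 13 of 42 genes with an 82-kDa ChAT peak after vehicle (31.0%, 17.6 to 47.1) and in 27 of 74 after Aβ (36.5%, 25.6 to 48.5). It was present in 7 of 14 and 25 of 56 genes with a SATB1 peak (50% and 44.6%). The TATA box, TATAAA, stood in 10.8% of all genes and in 4 of 42, 12 of 74, 2 of 14 and 3 of 56 of those with a peak. The CCAAT box, CCAAT, stood in 35.9% of all genes and in 36.0% of the 178 genes with a peak in any list. The E-box, CACGTG, stood in 8.35% and 7.87%, and the pentamer CATTC in 32.4% and 34.8%. The letters TCCAT stood in 31.2% of all genes and in 40.4% of those with a peak (33.2 to 48.0). By list TCCAT stood in 42.9%, 37.8%, 28.6% and 41.1% of genes with a peak, and each of these intervals includes 31.2%. TCCCAT stood in 13.0% of all genes and in 14.6% of those with a peak. A match is a description of the window and not of binding.

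The share of start peaks that overlapped another list had an interval that included the share over all peaks of the list, for every pairing of the 4 lists. Of the 178 genes, 170 had a start peak in 1 list, 8 in 2 lists and none in 3 or 4. Across treatments, FCMR was the only start with overlapping peaks of the same protein, with scores of 110.45 after vehicle and 87.99 after Aβ. This is 1 of 40 and 1 of 69 start peaks of 82-kDa ChAT, where 5.01% of all vehicle peaks and 5.53% of all Aβ peaks overlapped the other list. No SATB1 start peak recurred across treatments, 0 of 13 after vehicle, where 1.61% of all SATB1 vehicle peaks overlapped an Aβ peak.

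Between the proteins after vehicle, 4 of 13 SATB1 start peaks overlapped an 82-kDa ChAT peak (30.8%, 9.09 to 61.4), against 22.5% of all SATB1 vehicle peaks, a share near the background. At CTNND1 the 82-kDa ChAT peak scored 99.29 and the SATB1 peak 83.84, and both also touched the start window of the divergent neighbour BTBD18. At CYP4F11 the scores were 70.42 and 70.41, and at LRGUK 56.26 and 68.69. The fourth was at COMMD10, where the SATB1 peak (52.21) touched the window but the 82-kDa ChAT peak beneath it (50.09) did not. After Aβ, 3 of 55 SATB1 start peaks overlapped one of 82-kDa ChAT (5.45%, 1.14 to 15.1), against 3.54% of all SATB1 peaks after Aβ. These were SMIM42 (73.39 for 82-kDa ChAT and 54.98 for SATB1), MRO (60.26 and 63.00) and TRPC4 (59.32 and 66.79).

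The genes were compared with lists chosen with earlier results of these data known. In 9 lists no gene had a start peak: APP processing and binding (23 genes), Alzheimer disease risk (26), cholinergic (28), noradrenergic identity (23), retinoic acid response (24), cell stress and programmed cell death (53), synapse (52), chromatin and nuclear matrix (44) and replication-dependent histones (69). Together these were 0 of 341 genes, where 0.891% of all genes had a start peak in any list. Taking 3 counts over the number of genes as an approximate upper bound gives 0.880%. This is not the exact interval used elsewhere, and it is too close to the background to show an absence. Each list alone is too short to show one. The lists are selections, and genes of related roles outside them had start peaks, such as CYCS, which encodes cytochrome c, after vehicle and GRIN3B after Aβ, both for 82-kDa ChAT.

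Other families did contain start peaks. Olfactory receptor genes, which are expressed in the nose, had 3 of 415 after vehicle (OR2G3, OR4C15 and OR4N2) and 4 after Aβ (OR10J5, OR14A16, OR5B2 and OR5J2) for 82-kDa ChAT. SATB1 had 0 after vehicle and 2 after Aβ (OR1A1 and OR6B1). Over all lists this was 2.17% of the family, against 0.891% of all genes, and the OR4N2 peak was multi-copy. Zinc finger ZNF genes, mostly transcriptional regulators, had 5 of 508 for 82-kDa ChAT after Aβ (ZNF215, ZNF536, ZNF593, ZNF729 and ZNF780B), 3 for SATB1 after Aβ (ZNF497, ZNF510 and ZNF628) and none after vehicle. The share over all lists was 1.57%, and the 3 SATB1 peaks matched Alu elements. The ZNF593 window was reached by a peak nearest to its divergent neighbour C1orf232 (61.79).

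Ribosomal protein genes had 4 of 84 (4.76%), namely RPL34 and RPS25 for 82-kDa ChAT after vehicle and RPL23A and RPL26L1 for SATB1 after Aβ. The RPS25 window was reached by a peak nearest to its divergent neighbour TRAPPC4 (54.47), and the RPL23A peak was multi-copy. Ribosomal protein genes have many processed copies, so the assignment of their exon sequence is uncertain. Clustered protocadherin genes, which encode neuronal adhesion proteins, had 1 of 53, PCDHB5, for 82-kDa ChAT after vehicle (73.54, 463 nt upstream). The other lists had none. Over all lists this was 1.89% of the family, against 0.891% of all genes, and it rests on 1 gene. Of 346 genes of duplicated families, 8 had a start peak (2.31%, against 0.891% of all genes), of which FAM90A19 scored highest, followed by GAGE12B (74.69), FAM90A16 (72.59) and USP17L15 (61.49). The peaks of these named genes were multi-copy, and the TAF11L copies are not on that list. Keratin-associated and late cornified envelope genes had 2 of 113, LCE3D (73.22) and KRTAP10-7 (66.05), both for 82-kDa ChAT after Aβ. Over all lists this was 1.77%, against 0.891% of all genes, and it rests on these 2 genes. The KRTAP10-7 peak was multi-copy, so its assignment to that gene is uncertain.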

How the data were processed

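ChIP-seq peak lists of 82-kDa ChAT and SATB1 were analysed, 1 list for each of the 4 libraries. The score of each peak was used as the authors deposited it: per the study's methods, reads, described both as single and as paired, were mapped to hg38 with the Burrows-Wheeler Aligner with repeat-masking, peaks were called with MACS at a p-value of 1e-05, and peaks also found in the matching input were removed. The labels' processing notes name BWA and hg38. Read counts, inputs and per-library depth were not analysed here, so intervals cover counting error over peaks only.

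Starts were the 5′ ends of protein-coding genes of GENCODE release 44 on chromosomes 1 to 22 and X. Side and distance were read from the peak midpoint to the nearest start. Alu-matching peaks matched a 287 nt Alu copy (blastn, e-value 1e-05), multi-copy peaks had over 50% of their 51-mers more than once in the genome, and pentamer-rich peaks had at least 3 CATTC per 100 nt. Intervals at 95% were exact Clopper-Pearson for shares, exact Poisson for densities, Newcombe for differences and order statistics for medians. The bound for 0 of 341 listed genes was instead approximate, at 3 counts over the number of genes. Overlap meant at least 1 nt. Alternatives were other windows, all transcript starts, MANE Select genes, higher scores, midpoints, wider overlaps and no repeat peaks. Functions were tested on simulated peaks. The software was BLAST+ 2.17.0, samtools 1.23.1 and Python 3.11.15, with pysam 0.24.0, SciPy 1.17.1, matplotlib 3.10.9, NumPy 2.4.6 and pandas 2.3.3.

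The members and gene lists were chosen with earlier results of these data known. Genes named were those of the 5 start peaks with the highest score in each list, overall and outside the repeat classes, genes whose start peaks overlapped between lists, up to 4 of each gene list in a list, and the 5 highest whose start was covered. Genes named for their sequence (DNAJC2, ZNF215, GRIN3B, EXOC7, TCP10L, SLC45A2 and the TAF11L copies), COMMD10, CYCS, ZNF593 and those at the edge of the rule were named after their values were seen. The sequences of some named peaks are not reported here.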

Additional observations from a re-analysis of the deposited data

How the results depend on the processing

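Of 12 recomputed treatment differences, all 12 were above 0, and the intervals of 2, both for SATB1 and given in the report, included 0. With windows of 500 nt the shares in the 4 lists, in the order of the report, were 0.256%, 0.541%, 0.179% and 0.292%, in 0.640% of the bases. With windows of 2000 nt they were 1.59%, 2.19%, 1.43% and 2.56%, in 2.48% of the bases. With the starts of all annotated transcripts they were 3.41%, 4.20%, 2.90% and 4.16%, in 4.33% of the bases, and 235, 271, 85 and 243 genes had a peak. These windows cover fewer or more bases, but the shares did not all move in proportion to them. For 82-kDa ChAT after vehicle the share was 0.568% in 1.26% of the bases with the main windows. With all transcript starts it was 3.41% in 4.33%. For SATB1 the treatment difference was 1.13 points with windows of 2000 nt, 1.26 with all transcript starts and 0.932 without repeat peaks, the last with a share of 1.44% after Aβ. Peaks at or above the median score reached 20, 37, 9 and 24 genes, since fewer peaks entered. Without repeat peaks, SATB1 after Aβ reached 14 genes and 42.9% of its 14 start peaks lay upstream, against 67.3% with them. The GC medians, the shares of start peaks that overlapped another list and the other upstream shares stayed inside the interval of the reported value under every alternative tried.

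No paired analysis was possible because each protein and treatment had 1 library. Without replicates and with depth unknown, the intervals do not cover differences between cultures or libraries.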

Other observations

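Head-to-head genes, with the start of a gene of the opposite strand at most 1000 nt upstream of their own, made up 8.56% of all protein-coding genes. Among genes with a start peak they were 4 of 42 after vehicle and 6 of 74 after Aβ for 82-kDa ChAT. For SATB1 they were 2 of 14 after vehicle and 0 of 56 after Aβ, which allows a share of up to 6.38%. A peak between head-to-head genes can reach both starts, so these are counts of genes and not of peaks. The 2 genes for SATB1 after vehicle were BTBD18 and CTNND1, reached by 1 peak.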
